A study of Danio rerio with 16 samples.

Results

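The comparison set whole zebrafish larvae that had received polystyrene particles against non-injected larvae, both taken 3 days post injection (dpi). It rests on 6 of the 16 libraries of the series, chosen by their titles: particle libraries A, B and C and control libraries A, B and C. All larvae were wild type. Particle larvae had received 1 nl of red fluorescent polystyrene particles at 5 mg/ml, carried in polyvinylpyrrolidone, into the yolk at 2 days post fertilization (dpf), and were collected at 5 dpf. Control larvae of the same age received neither the needle nor the vehicle, so that the effects of injection, vehicle and particles cannot be told apart in this comparison. Mock larvae, injected with vehicle only, gave 2 libraries at 3 dpi, and their values are set beside the results below. The labels give a diameter of 700 nm, but the header of particle library C reads 70 nm, and the bead size of that library is unsettled. The labels call the libraries biological replicates and give 10 embryos per group. They do not say how embryos were shared among libraries, so the p-values measure the spread between libraries. In the main fit that spread was estimated over all 16 libraries, those of mock larvae and of 1 dpi included.

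Each of the 6 libraries held between 9081184 and 19840148 counted reads. Of 36 marker genes of larval organs, 35 were detected in all 6 libraries, so the RNA covers liver, pancreas, gut, muscle, eye, brain, blood and skin. Libraries A and B carry another series name in their headers than the C libraries. Along the first principal component, which held 46.8% of the variance, particle C and control C lay together at −47.7 and −53.9, and particle A, particle B, control A and control B lay at 59.0, 30.9, −14.7 and 26.4. The libraries thus stood apart by series more than by treatment on this axis, and gene lists and genes whose values 1 library moved most are also given without it. Levels are in CPM, read counts scaled to library size and composition, and differences are log2 values of particle over control.

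At 5 dpf the zebrafish liver and exocrine pancreas have only just become functional, and the yolk is close to used up. The liver secretes most plasma proteins: complement, clotting factors, lipid carriers and protease inhibitors. Complement is a cascade in which C3, cut by proteases that include factor B, tags foreign surfaces, and C5 to C9 then assemble a pore in the target membrane. Complement and other acute phase genes of the liver are also raised by inflammatory cytokines in vertebrates. Whole-larva RNA cannot tell a larger liver from more RNA per liver cell. Roles named below are those known from mammals or zebrafish.

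Of 23623 genes tested, edgeR called 0 higher and 0 lower in particle larvae at an adjusted p under 0.05, the smallest adjusted p being 0.9999. DESeq2 and limma-voom also called 0. At an unadjusted p under 0.05 edgeR listed 268 genes as higher, 1.13% of those tested, and 102 as lower, 0.432%. In both directions together that made 370 genes by edgeR (1.57%), 336 by DESeq2 (1.42%) and 330 by limma-voom (1.4%). Each share is below the threshold of 0.05, the share listed on average when no gene differs. In these 3 fits of all 16 libraries the number of listed genes is thus no sign of a difference. The number depended on the libraries used. It was 122 of 23554 genes without particle A and 1290 of 23575 without particle C. With the A and B libraries alone it was 2109 of 23212. Without particle C and with A and B alone the share exceeded 0.05, though none of these fits called a gene. The 3 particle libraries all lay above the 3 control libraries for 746 genes (3.16%) and all below for 609 (2.58%). For 16038 genes (67.9%) the 95% interval of the difference lay within a 2-fold change either way. Among the 15567 genes whose mean reached 5 CPM this held for 13390 (86%), so that for most well-measured genes a change beyond 2-fold lay outside the interval. The median standard error was 0.27 on the log2 scale. Standard errors and intervals were derived from the log2 value and its test statistic, and are uncertain where the log2 value is near 0.

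Of 44 gene lists, 32 had a median log2 value above 0, and the 4 with the highest medians hold genes of the liver and pancreas. The lists and their members were chosen with earlier results of these data known, so their rank and their distance from all genes are not independent results. In the list of 28 liver carriers and protease inhibitors, the plasma proteins that carry hormones, metals and lipids or block proteases, the median log2 value was 1.83, and 27 stood above 0, against 50% of all genes tested. The complement list had a median of 1.07 over 32 genes, the coagulation list 1.03 over 29 and the digestive enzymes of the exocrine pancreas 1.02 over 33, against 0.00 over all genes. Of these 4 lists, edgeR gave an unadjusted p under 0.05 upward to 12, 16, 7 and 1 members, against 1.13% of all genes tested. No member of any list passed the adjusted test, and no member of these 4 lists had an unadjusted p under 0.05 downward. Members of a list share libraries, and many are made in the same organ, so their counts are not independent of each other.

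**Figure D1:**
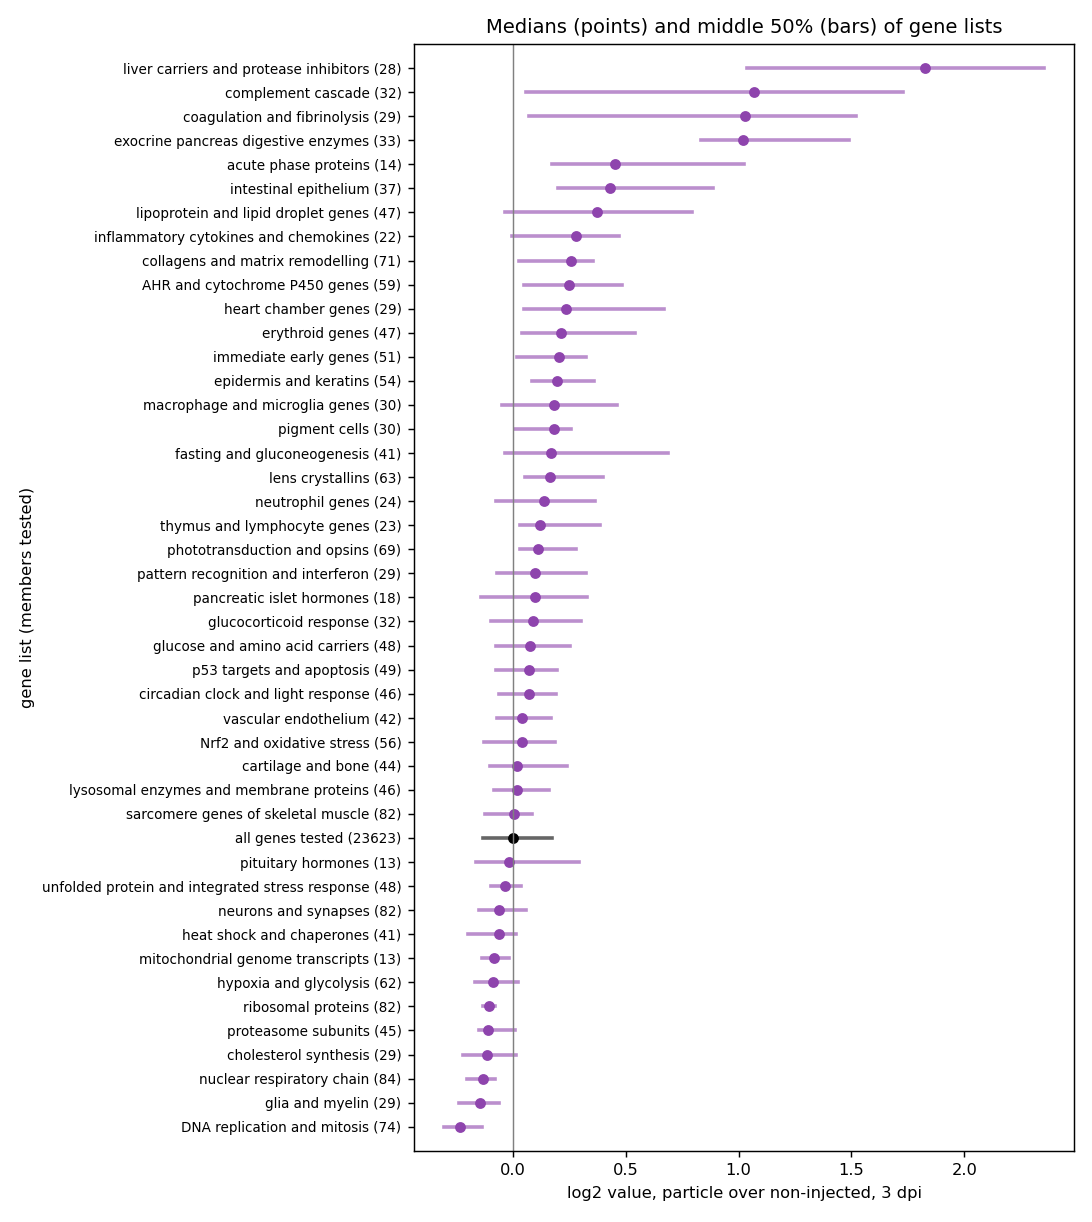
Median log2 value (points) and middle 50% of members (bars) of each of 44 gene lists and of all genes tested, particle over non-injected at 3 dpi, with the number of members tested in brackets. Liver carriers (1.83), complement (1.07), coagulation (1.03) and exocrine pancreas (1.02) lie far to the right of all genes (0.00), and DNA replication (−0.24) lies lowest. The lists were chosen with earlier results of these data known.

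Complement component C3, the hub of the cascade, is encoded by several neighbouring paralogs in zebrafish, and their reads may be shared, so values of single copies are uncertain. The gene c3a.1 (ENSDARG00000012694, chromosome 1) stood at 64.2, 26.7 and 14.5 CPM in particle libraries A, B and C, against 4.11, 11.1 and 7.54 CPM in control libraries A, B and C. All 3 particle libraries lay above all 3 controls, with particle A the highest and control A the lowest. The means were 35.1 ± 25.9 CPM with particles and 7.57 ± 3.48 CPM without injection (SD, n = 3 each), a log2 value of 2.22 with a 95% interval of 0.83 to 3.61 (SE 0.65). The unadjusted p was 0.00418, and the log2 value was 1.45 without particle A. The copy c3a.6 (ENSDARG00000043719) had the least spread of the C3 genes, at 14.1, 9.20 and 5.84 CPM in particle libraries against 2.93, 4.25 and 3.89 CPM in controls, a log2 value of 1.39 (SE 0.39, unadjusted p 0.00309). The groups did not overlap. For c3a.3 (ENSDARG00000052207) the particle libraries held 40.3, 26.7 and 9.05 CPM, against 4.11, 8.83 and 5.43 CPM in controls, a log2 value of 2.06. The lowest particle library lay just above the highest control. For c3a.1, c3a.3 and c3a.6, as for cfb and c9 below, lack of overlap was a condition of a rule that named them and no separate result. The copies c3a.2, c3b.2 and c3b.1 had log2 values of 1.88, 1.32 and 0.98, with groups that overlapped, and the low copy c3a.5 had −0.21.

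Factor B, encoded by cfb (ENSDARG00000055278, chromosome 21), is the protease that amplifies C3 cleavage. It stood at 15.2, 10.6 and 4.82 CPM in particle libraries A, B and C, against 0.640, 2.91 and 2.59 CPM in controls. The groups did not overlap, and the log2 value was 2.30 (SE 0.87, unadjusted p 0.0188). At the pore-forming end of the cascade, the gene c9 (ENSDARG00000016319, chromosome 5), whose product polymerises into the pore, stood at 56.4, 27.3 and 14.2 CPM with particles, against 3.02, 7.38 and 7.44 CPM in controls, with no overlap. Its log2 value was 2.45, with a 95% interval of 0.72 to 4.18 (unadjusted p 0.00894). The other parts of the pore, c8g, c5, c8a and c8b, had log2 values of 1.97, 1.72, 1.23 and 0.95, while c6 and c7a had 0.45 and 0.07. In the low gene serping1, whose product inhibits the first proteases of the classical pathway, the particle libraries held 5.29, 2.58 and 1.23 CPM against 0.731, 1.23 and 0.816 CPM in controls. The lowest particle value and the highest control value of serping1 are nearly equal.

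Not every complement gene stood higher. Factor D (cfd), the protease that activates factor B, had a log2 value of −0.05, properdin (cfp), which stabilises the C3 cleaving complex, 0.01, and c4 −0.12. The lectin pathway protease masp1 had 0.02 and the classical pathway starters c1qa and c1qc −0.35 and −0.78, both at low levels. In mammals C1q is made mainly by macrophages, factor D by fat cells and properdin by white blood cells. These origins cover only some of the genes near or below 0, and not c4 (−0.12) or masp1 (0.02). Whether the cells of origin bear on these values was not tested. In all, 26 of 32 tested members stood above 0, and 9 of 32 (28.1%) had particle libraries all above the controls, against 3.16% of all genes. That share was 7.14% for liver carriers, 3.45% for coagulation and 3.03% for the exocrine pancreas, the last 2 near that of all genes. Among immune lists it was 13.6% for cytokines and chemokines, 13.3% for macrophage and microglia genes and 10.3% for pattern recognition and interferon. For neutrophil genes it was 8.33% and for acute phase genes 0%.

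**Figure D2:**
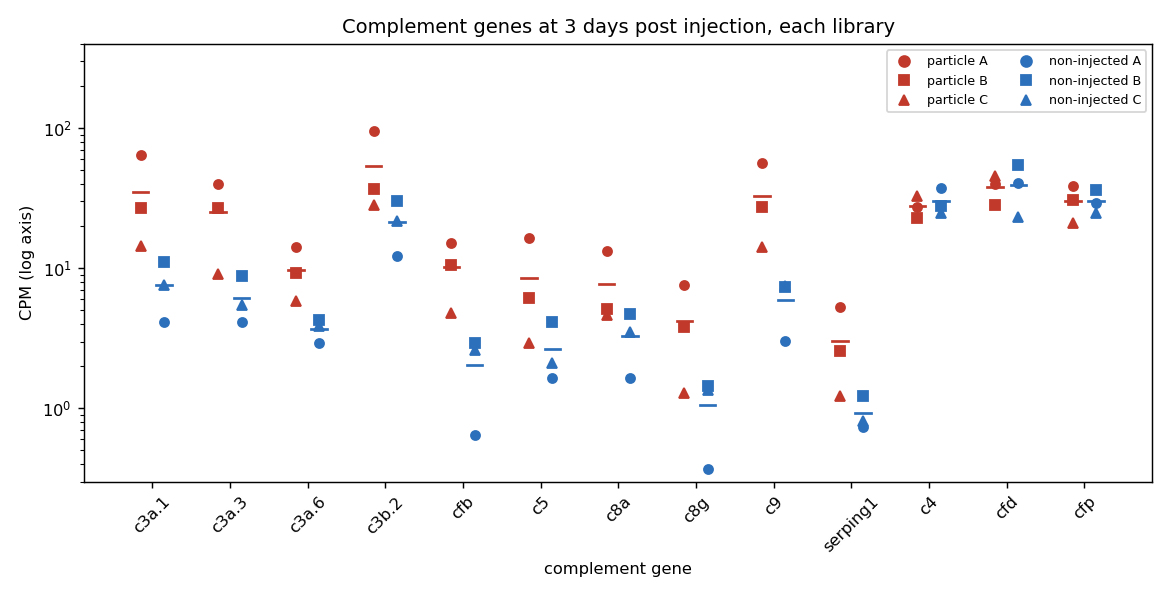
CPM on a log axis of 13 complement genes in each library at 3 dpi, particle libraries on the left in red and non-injected on the right in blue, with a bar at each mean. Particle A is the highest library for each of the first 10 genes and control A the lowest, while c4, cfd and cfp overlap.

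The liver carriers spread widely between libraries of one group. The plasma vitamin D carrier gc (ENSDARG00000089310, chromosome 5) stood at 68.5, 22.5 and 5.30 CPM in particle libraries A, B and C, against 3.29, 12 and 2.26 CPM in controls. Particle C lay below control B, so the groups overlapped, and the log2 value was 2.51 with a 95% interval of 0.71 to 4.30 (unadjusted p 0.00963). Without particle A it was 1.29. The fetuin gene ahsg2 (ENSDARG00000069293, chromosome 2), a secreted protease inhibitor, stood at 6.70, 3.70 and 1.07 CPM with particles, against 0.731, 0.783 and 0.384 CPM in controls. Its groups did not overlap, with a log2 value of 2.63 (SE 0.67, unadjusted p 0.00161). Control libraries A, B and C held only 8, 7 and 8 reads of ahsg2, and particle C held 20. Transferrin (tfa), the iron carrier, stood at 311, 215 and 73.9 CPM with particles, against 16, 98.6 and 24.3 CPM in controls, a log2 value of 2.12. The hepatocyte fatty acid binding protein fabp10a, a standard marker of the liver in zebrafish, stood at 486, 183 and 53.3 CPM with particles, against 40.9, 211 and 14.7 CPM in controls. There control B lay above particle B and particle C, and the log2 value of 1.44 had an unadjusted p of 0.241. Ceruloplasmin (cp), the copper carrier, had a log2 value of 1.63, while the yolk and liver retinol carriers rbp4 and rbp4l had −0.13 and 0.04.

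In the coagulation list the spread between libraries was as wide. The protease inhibitor a2ml (ENSDARG00000056314, chromosome 15) stood at 110, 40.1 and 14.5 CPM with particles, against 6.22, 33.4 and 8.50 CPM in controls, a log2 value of 1.79 (unadjusted p 0.0297), which was 0.78 without particle A and 2.89 without control B. Protein C (proca, ENSDARG00000038258, chromosome 2), an anticoagulant protease, stood at 18.1, 7.74 and 4.12 CPM against 2.47, 5.25 and 3.22 CPM in controls, a log2 value of 1.46, or 0.71 without particle A. In both genes particle A was the highest library, control B was the highest control, and the groups overlapped. The log2 values of plasminogen (plg) and fibrinogen gamma (fgg) were 2.48 and 2.07. The members vwf of the vessel wall, the tissue factor gene f3b and the inhibitor tfpia had −0.29, 0.01 and 0.07. Like plg and fgg, they were picked after their values were seen.

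In the lipoprotein and lipid droplet list 3 of 47 members had an unadjusted p under 0.05 upward, against 1.13% of all genes. The cholesteryl ester transfer protein cetp (ENSDARG00000030872, chromosome 18) stood at 11.8, 4.21 and 1.66 CPM with particles, against 0.548, 1.01 and 0.528 CPM in controls, with no overlap. Its log2 value was 3.12, with a 95% interval of 1.15 to 5.09 (unadjusted p 0.00434). For dgat2 (ENSDARG00000018846, chromosome 10), which makes triglyceride, the levels were 14.2, 4.21 and 1.45 CPM with particles, against 1.19, 2.80 and 1.15 CPM in controls, and they overlapped. The log2 value of dgat2 was 1.98, or 0.74 without particle A. The list as a whole had a median of 0.37. The droplet coat gene plin2 stood at 8.32, 15.2 and 18.4 CPM with particles against 13.7, 12.5 and 16.3 CPM in controls, a log2 value of −0.02 with a 95% interval of −0.83 to 0.78.

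The genes of the liver lists followed the libraries as well as the groups. Summed over the 28 liver carriers, particle libraries A, B and C held 3584, 1834 and 901 CPM, against 804, 1698 and 730 CPM in controls A, B and C. The complement sums were 619, 354 and 282 CPM with particles, against 191, 288 and 212 CPM in controls, and the coagulation sums 978, 583 and 412 CPM against 420, 578 and 370 CPM. The ranges of both groups overlapped in each of the 3 sums, with particle A highest and control B the highest control. Digestive enzymes of the exocrine pancreas summed to 4571, 635 and 150 CPM with particles, against 139, 2407 and 99.2 CPM in controls, so that control B lay above particle B and particle C. For trypsin (try) the levels were 547, 91.9 and 30.8 CPM with particles, against 26.0, 279 and 19.5 CPM in controls. Per 100 CPM of liver carriers, complement genes summed to 17.3, 19.3 and 31.3 CPM with particles, against 23.8, 16.9 and 29.0 CPM in controls, and these ratios overlapped too. The part of the pancreas and gut levels in the liver values was not tested.

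**Figure D3:**
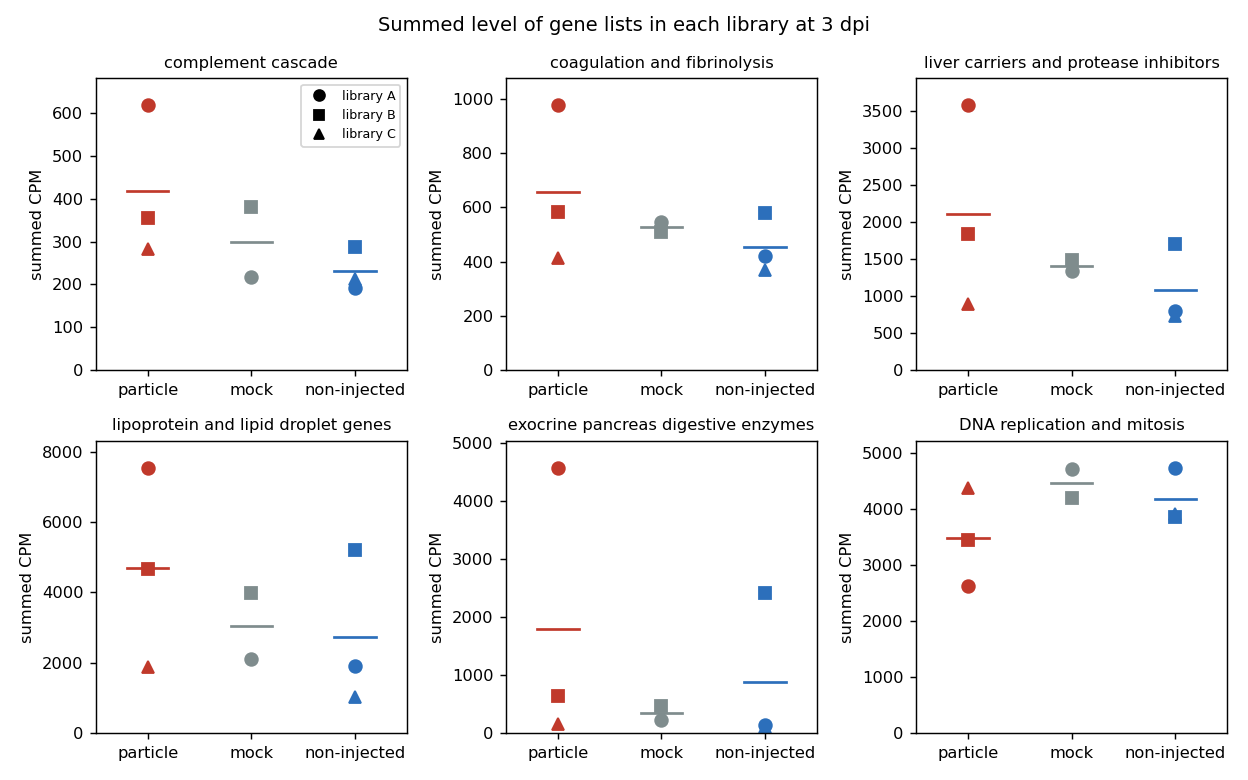
Summed CPM of 6 gene lists in each library at 3 dpi, for particle, mock and non-injected larvae, with a bar at each mean and a marker shape per library letter. Particle A is highest in the 5 liver, lipid and pancreas panels and lowest for DNA replication (2619 CPM), and control B is the highest control in those 5 panels.

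Leaving out particle A lowered the medians to 0.59 for complement, 0.88 for liver carriers and 0.40 for coagulation, and left 2, 1 and 0 members at an unadjusted p under 0.05 upward, against 0.297% of all genes. The exocrine pancreas median was then −0.84. In the same order the counts were 7, 4 and 0 without control A (0.495% of all genes), and 13, 4 and 0 without control C (1.57%). They were 14, 20 and 13 without control B (1.84%), 14, 7 and 5 without particle B (0.873%), and 17, 19 and 11 without particle C (3.16%). Without control B the pancreas median was 3.60, and 23 of its members had an unadjusted p under 0.05 upward. Within the A and B libraries alone the medians were 1.39 for complement, 1.88 for liver carriers and 1.13 for coagulation, with 20, 18 and 10 members listed, against 4.63% of all genes. With a term for the library series the counts were 17, 19 and 10, against 1.84% of all genes. None of these fits called a gene of any list.

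Single inflammatory genes outside the complement list, such as il1b and mpx, had wide intervals. The cytokine gene il1b stood at 1.69, 1.12 and 4.34 CPM with particles against 1.28, 1.12 and 1.63 CPM in controls, a log2 value of 0.83 with a 95% interval of −0.49 to 2.14, and 0.05 without particle C. The gelatinase gene mmp9, a gene of injured tissue, stood at 7.62, 5.93 and 17.6 CPM with particles against 5.12, 4.58 and 12.8 CPM in controls, a log2 value of 0.45 that was −0.18 without particle C. For both genes the C library was the highest of its group, and the groups overlapped. The neutrophil gene mpx had a log2 value of 0.84 (95% interval −0.35 to 2.03), and the macrophage gene mpeg1.1 had 0.46 (−0.36 to 1.28). Without particle A mpx had 0.48 and mpeg1.1 −0.09. For the lists, 15 of 24 neutrophil genes and 20 of 30 macrophage and microglia genes stood above 0, with medians of 0.14 and 0.18. Among 22 cytokine and chemokine genes the median was 0.28, and among 14 acute phase genes 0.45. In the pattern recognition and interferon list, with a median of 0.10 over 29 genes, the antiviral gene mxc (ENSDARG00000024789, chromosome 9) stood at 0.917, 2.49 and 14.6 CPM with particles against 0.731, 0.894 and 2.69 CPM in controls. Its log2 value was 1.99, and 0.15 without particle C. The kinase gene pkz (ENSDARG00000052396, chromosome 13), a sensor of unusual nucleic acid, stood at 1.27, 1.38 and 0.750 CPM with particles against 0.548, 0.112 and 0.528 CPM in controls, with no overlap. Control libraries A, B and C held only 6, 1 and 11 reads of pkz. The acute phase gene saa had 0.78 and the heat shock gene hsp70l −0.22 (95% interval −1.03 to 0.60).

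Some genes of other functions had less spread between libraries than the liver genes. The genes foxq1b, ZFP36, il4r.1, PNPLA8 (2 of 2) and PTCHD2 were named for the smallest p among genes whose groups did not overlap. The complement genes c3a.1, c3a.3, c3a.6, cfb and c9 met the same rule. Neither the lack of overlap nor a small spread is therefore a separate result for any of these genes. The forkhead factor gene foxq1b (ENSDARG00000055395, chromosome 20) stood at 8.11, 7.48 and 9.05 CPM with particles, against 4.11, 4.47 and 5.04 CPM in controls, a log2 value of 0.85 (SE 0.26, unadjusted p 0.00619). Without particle A the log2 value of foxq1b was 0.86. The gene ZFP36 (ENSDARG00000103720, chromosome 15), whose product destroys cytokine mRNAs, stood at 90.2, 74.9 and 72.3 CPM with particles against 51.5, 60.2 and 47.0 CPM in controls, a log2 value of 0.58. The interleukin 4 receptor gene il4r.1 (ENSDARG00000102583, chromosome 3) stood at 20.9, 15.9 and 15.2 CPM with particles against 9.87, 9.73 and 14.6 CPM in controls, a log2 value of 0.59. The phospholipase gene PNPLA8 (2 of 2) and the membrane protein gene PTCHD2 had log2 values of 0.79 and 1.03. The gene with the smallest p of all, upp2 (ENSDARG00000036833, chromosome 9), a uridine phosphorylase of fasting liver, stood at 18.1, 5.25 and 0.482 CPM with particles and 0.274, 0.335 and 0.144 CPM in controls. Each control library held 3 reads of it, and the log2 value of 5.04 (95% interval 2.61 to 7.47, unadjusted p 0.000629) became 3.55 without particle A.

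Each of the other lists had at most 3 members with an unadjusted p under 0.05 upward, against 1.13% of all genes tested. The fibronectin gene fn1b (ENSDARG00000006526, chromosome 1) stood at 171, 75.9 and 40.2 CPM with particles, against 24.7, 50.4 and 31.7 CPM in controls, a log2 value of 1.43 with overlapping groups, or 0.71 without particle A. The collagenase gene mmp13a (ENSDARG00000012395, chromosome 10) stood at 2.26, 2.92 and 2.30 CPM with particles, against 1.1, 1.23 and 1.39 CPM in controls, a log2 value of 0.99 with no overlap. These were 2 of the 3 members at an unadjusted p under 0.05 upward among 71 collagen and matrix genes (4.23%). In the list of 59 cytochrome P450 and aryl hydrocarbon receptor genes, cyp4v7 and cyp2ad2 had log2 values of 0.76 and 1.39, and cyp2ad2 had 0.70 without particle A. In the pigment cell list tyr, the melanin enzyme tyrosinase, stood at 8.11, 10.2 and 4.61 CPM with particles, against 4.02, 3.91 and 4.99 CPM in controls, and gpnmb, a melanosome protein, had a log2 value of 0.66, or 0.41 without particle B. In both pigment genes particle C lay below control C. In the lens list the gap junction gene cx44.1 had 1.17, or 0.74 without particle B, and the crystallin gene crybb2 −1.64, the second on at most 11 reads in any of the 6 libraries. In the cartilage and bone list the ear stone gene otomp had 1.1 and the jaw patterning gene dlx6a −0.46, and neither overlapped between groups. The insulin-like growth factor binding gene igfbp1a, a liver gene of fasting and stress, chosen after its values were seen, stood at 39.1, 24.1 and 19.9 CPM with particles, against 6.40, 11.5 and 12.6 CPM in controls, a log2 value of 1.44.

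The 10 genes named for the smallest p among those lower in particle libraries had log2 values from −0.76 to −0.39. They were chosen among genes whose groups did not overlap, so the lack of overlap is not a separate result. The gene txnipb (ENSDARG00000070000, chromosome 16), an arrestin-like protein that curbs glucose uptake, stood at 37.4, 49.4 and 48.6 CPM with particles, against 97.8, 80.2 and 51.2 CPM in controls, a log2 value of −0.76 (SE 0.24, unadjusted p 0.00610). The groups did not overlap, with particle B just below control C. The glial filament gene gfap (ENSDARG00000025301, chromosome 3) stood at 235, 177 and 257 CPM with particles, against 263, 341 and 307 CPM in controls, a log2 value of −0.44 (95% interval −0.79 to −0.10). The patterning gene hoxc6a stood at 9.59, 10.3 and 11.1 CPM with particles against 14, 13.3 and 14 CPM in controls, a log2 value of −0.41. The other 7 of these genes were dusp23b at −0.71, a phosphatase, gpr161 at −0.63 (−0.40 without control A), a ciliary receptor that dampens Hedgehog signals, sdf2 −0.59, slc16a9b −0.55, ss18l2 −0.54, b3gat1a −0.44 and the growth factor gene tgfb2 −0.39. In the glia and myelin list 5 of 29 genes stood above 0, with a median of −0.15, and 6 had particle libraries all below controls, against 2.58% of all genes. Besides gfap these were cx43, slc1a2b, glula, plp1b and olig2, with log2 values from −0.38 for glula to −0.20 for slc1a2b and olig2.

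**Figure D4:**
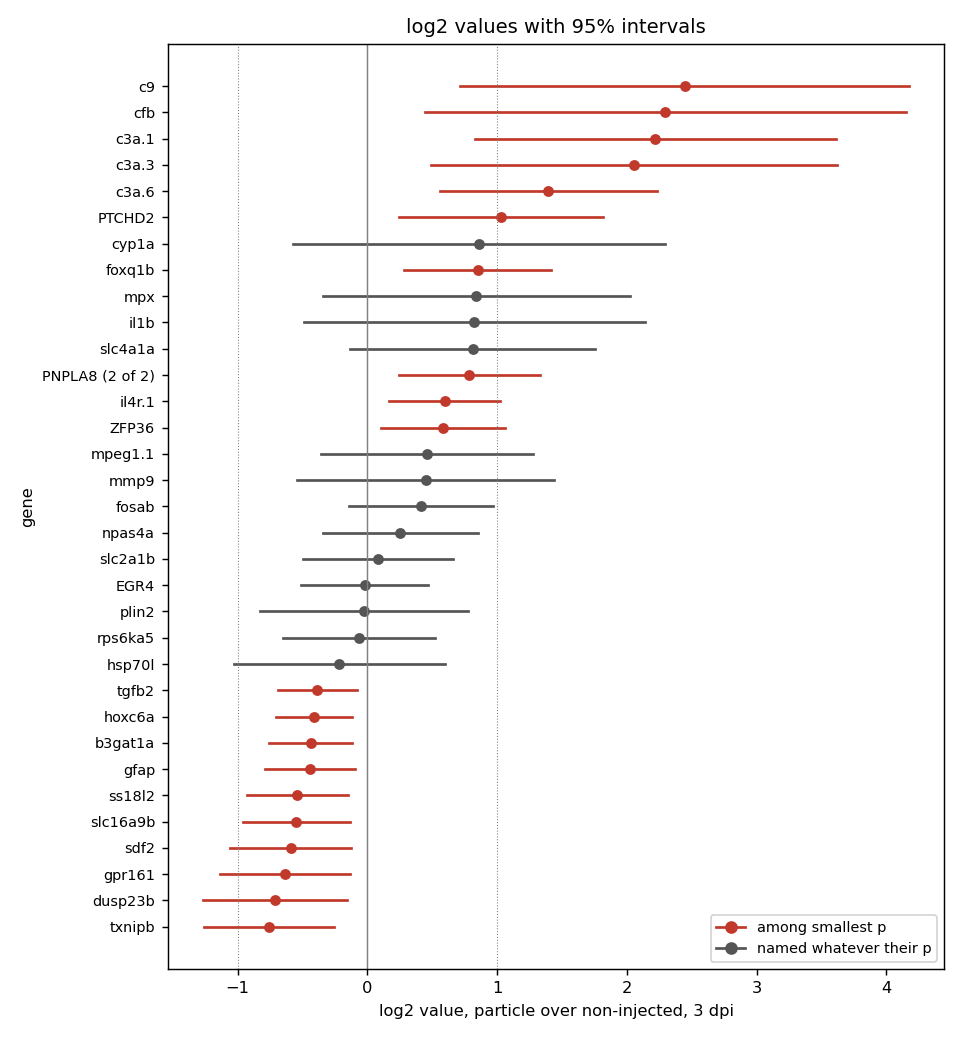
log2 values, particle over non-injected at 3 dpi, with 95% intervals for 33 genes. Those among the smallest p, in red, include c9 (2.45) and txnipb (−0.76), and the others, named whatever their p and drawn in grey, have intervals that cross 0, such as il1b (0.83) and plin2 (−0.02).

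Most genes of dividing cells had log2 values just below 0, and the distance from 0 depended on the libraries used, particle A among them. Of 74 DNA replication and mitosis genes 2 had a log2 value above 0, with a median of −0.24, and 1 had an unadjusted p under 0.05 downward, unga at −0.51, against 0.432% of all genes. Without particle A the median was −0.03 and 29 stood above 0, without control A it was −0.13 and 12 did, and without particle C it was −0.41. With the A and B libraries alone the median was −0.50, and 0 of 74 stood above 0. In that fit 39 had an unadjusted p under 0.05 downward. Over all 23212 genes of that fit 2109 had one in either direction, of which 1074 (4.63% of all) were upward and the rest downward. Their summed levels were 2619, 3442 and 4385 CPM in particle libraries A, B and C, against 4743, 3857 and 3923 CPM in controls. Particle C lay above control B and control C, and particle A, highest in liver genes, was lowest here. Ribosomal protein genes had a median of −0.10, with 2 of 82 above 0, and nuclear respiratory chain genes −0.13. With each library left out in turn the ribosomal median ran from −0.20 without control C to −0.03 without control B, where 21 stood above 0. For the erythroid list, the genes of red blood cells, 37 of 47 stood above 0 with a median of 0.21, and 8 (17.0%) had particle libraries all above controls, against 3.16% of all genes. Without control C that median was 0.34. The anion exchanger slc4a1a stood at 37.2, 29.1 and 32.8 CPM with particles, against 19.4, 14 and 22.9 CPM in controls, a log2 value of 0.81 with a 95% interval of −0.13 to 1.75. The embryonic globin gene hbae1 had 0.47, and globin reads may be shared between copies. Of 37 genes of the intestinal epithelium 33 stood above 0, with a median of 0.43 that ran from 0.17 without control C to 1.02 without control B. The detoxifying gene cyp1a, a target of the aryl hydrocarbon receptor, stood at 14.3, 9.29 and 5.14 CPM with particles against 4.66, 7.94 and 3.41 CPM in controls, a log2 value of 0.86 (95% interval −0.57 to 2.30), or 0.45 without particle A.

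**Figure D5:**
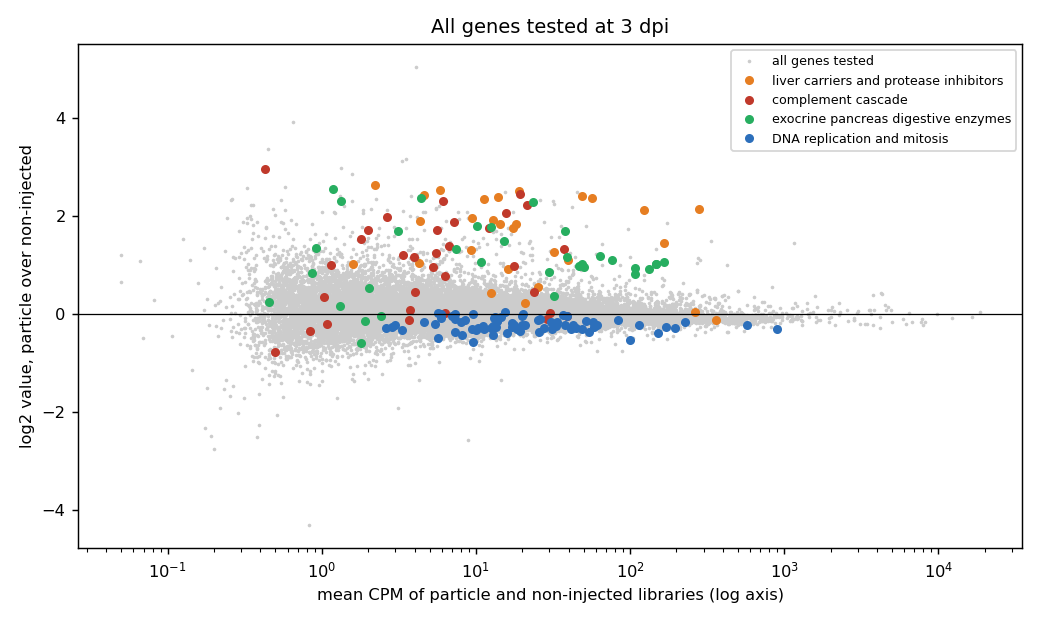
log2 value, particle over non-injected at 3 dpi, against mean CPM on a log axis for all 23623 genes tested, with 4 lists in colour. Most liver, complement and pancreas genes lie above 0, and DNA replication genes lie in a narrow band around and below 0, with 2 of 74 above it.

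Mock values are set side by side only, since the mock comparisons share libraries with the one above. At an adjusted p under 0.05 edgeR called 381 of 23623 genes for mock over control. It called 2044 for particle over mock, against 0 for particle over control, so the mock libraries differed from both other groups. Both mock libraries carry the series name of the A and B libraries, while particle and control also hold a C library each. In the counts and medians of the mock comparisons, mock injection and library series cannot be fully told apart. Mock library A of 3 dpi had a TMM factor of 0.694 and stood apart from the rest. For complement the median log2 value was 1.07 for particle over control, 0.46 for mock over control and 0.67 for particle over mock. For liver carriers the 3 medians were 1.83, 0.68 and 1.06. For the exocrine pancreas they were 1.02, −1.04 and 2.31, for erythroid genes 0.21, −0.70 and 0.80, and for ribosomal proteins −0.10, 0.77 and −0.87. The injury gene mmp9 had 0.45 for particle over control and 2.81 for mock over control, and il1b 0.83 and 2.60. For mmp9 both mock libraries lay above every particle and control library of 3 dpi. The il1b value for mock over control came mainly from mock library B, with 1.85 CPM in mock A and 14.97 CPM in mock B. For il1b mock A lay just above the highest control and below particle C. For rps6ka5, slc2a1b and EGR4 particle over control gave −0.06, 0.08 and −0.02, and mock over control −2.43, −2.10 and 1.19.

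At 1 dpi, in 6 other libraries, particle over control gave medians of 0.86 for complement, 1.30 for liver carriers, 0.69 for coagulation and 1.52 for the exocrine pancreas. In the same order 6, 6, 5 and 0 members had an unadjusted p under 0.05 upward by edgeR, against 403 of 23623 genes. Liver carriers summed to 875, 657 and 185 CPM in particle libraries A, B and C, against 602, 543 and 109 CPM in controls. The C library was the lowest of each group. The header of particle library C reads 70 nm at 1 dpi too. Over all genes the log2 values at 3 and 1 dpi had a Pearson correlation of 0.322 and a Spearman correlation of 0.235, a description across 23623 genes that are not independent replicates. Whether the difference itself changed between both times was tested by an interaction term. edgeR called 0 genes, with 82 higher (0.347%) and 130 lower (0.55%) at an unadjusted p under 0.05, or 212 in all (0.897%). limma-voom called 0, with 209 (0.885%), and DESeq2 called 1, with 200 (0.847%). That gene was npas4a (ENSDARG00000055752, chromosome 14), a transcription factor gene switched on by neuronal activity. At 3 dpi npas4a stood at 143, 116 and 82.8 CPM in particle libraries against 123, 107 and 56.5 CPM in controls. At 1 dpi it stood at 20.9, 22.0 and 15.2 CPM in particle libraries against 3.41, 2.38 and 4.64 CPM in controls. The groups overlapped at 3 dpi, and all particle libraries lay above all controls at 1 dpi. Lack of overlap at 1 or 3 dpi was a condition of a rule that named npas4a and no separate result. The log2 value was 0.25 at 3 dpi and 2.44 at 1 dpi, a change of −2.19 (SE 0.42), with an adjusted p of 0.9999 by edgeR and 0.01235 by DESeq2, and from 0.00566 to 1 over all fits tried. The early gene fosab had 0.41 at 3 dpi (0.13 without control C) and 1.41 at 1 dpi.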

How the data were processed

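Total RNA of whole zebrafish embryos was sequenced. The submitters' processing notes name Bowtie2, SAMtools, DESeq and the build GRCz10, without versions. How reads were counted, by strand or when shared between genes, is not given in the sources used here. Deposited columns, classed with expected counts because a size factor with decimals stands at their foot, hold whole-number counts per gene. Rounding changed no value, and 2 lines per file that name no gene were left out. Depth was 8679739 to 19840148 counts per library over the series, and this number limits precision for low genes.

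Counts were fitted in R 4.3.3 with edgeR 4.0.16 (quasi-likelihood, TMM factors, 6 group means over all 16 libraries). Of 31388 genes 23623 passed filterByExpr (minimum count 10, minimum total 15). P-values were adjusted by Benjamini-Hochberg at 0.05. CPM used TMM-scaled library sizes. DESeq2 1.42.0 and limma-voom (limma 3.58.1), other scaling, no filter, fewer libraries, replicate and series terms and each library left out were alternatives.

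The members and the 44 lists (2008 of 2129 written members matched) were chosen with earlier results of these data known. Lists share members, for example tfa and fabp10a. Named genes were the 10 higher and 10 lower with the smallest p among genes of at least 5 CPM with groups that did not overlap, 2 members of each list with at least 3 members at an unadjusted p under 0.05, the 4 with the smallest p for the change between times, and a set of stress, immune and red cell genes. For the 10 higher and 10 lower genes the lack of overlap was part of the choice. Clone names were left out. Other genes, among them list members, were chosen after their values were seen.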

Additional observations from a re-analysis of the deposited data

How the results depend on the processing

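Over 19 alternatives edgeR, DESeq2 and limma-voom called 0 genes between particle and control at 3 dpi, and 25 to 33 of 44 lists had a median above 0, against 32. The change between times called 0 genes, except 1 under DESeq2 and 1 with only the A and B libraries, both times npas4a, at −2.21 and −2.71. The cause was not tested. Values of single genes turned sign 15 times. In the A and B libraries hsp70l stood at 0.24 and rps6ka5 at 0.14, and limma-voom gave slc2a1b −0.013. With each library left out in turn, npas4a ran from −0.016 to 0.48, EGR4 from −0.23 to 0.14, mmp9 from −0.18 to 1.11, mpeg1.1 from −0.086 to 0.70, hsp70l from −0.48 to 0.28, plin2 from −0.28 to 0.24, rps6ka5 from −0.31 to 0.17 and slc2a1b from −0.25 to 0.30. All other values of named genes kept their direction and their side of the threshold. Members at an unadjusted p under 0.05 upward numbered 2 to 20 for complement, 0 to 13 for coagulation, 1 to 20 for liver carriers and 0 to 23 for the exocrine pancreas, counts whose alternatives were chosen after seeing the data. Among the fits whose share is given above, that of all genes ran from 0.297% without particle A to 4.63% with A and B alone.

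Libraries of letters A and B did not pair: deviations of same-letter libraries correlated at −0.0932 for A and 0.123 for B. Particle A correlated best with control B (0.484), and the C libraries correlated at 0.569. With a replicate block over all libraries 0 genes were called and 606 had an unadjusted p under 0.05, against 370 without it. The C libraries share a library series as well as a letter, and a term for the series gave 651. That count was 122 without particle A, 1290 without particle C and 2109 with A and B alone. Leaving out both mock libraries of 3 dpi, chosen after seeing the data, gave 454. Low counts limit genes such as upp2, whose control values rest on 3 reads per library.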
